A study of Mus musculus with 24 samples.

Results

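The left ventricles of dnCREB mice exposed to particulate matter (PM) were compared with the left ventricles of wild-type (WT) mice exposed to PM. The comparison rests on 6 of the 24 expression arrays in the series, chosen by the tissue, genotype and exposure in their labels: 3 arrays of dnCREB PM heart and 3 of WT PM heart. The dnCREB mice carry a dominant negative CREB1 whose expression is driven by a cardiomyocyte-specific myosin heavy chain promoter, and the WT mice carry no transgene according to their labels. Both groups were CD-1 mice of 20 weeks, labelled male. Both received 20 mg/kg of PM with a particle size of 1.9 µm, and tissue was taken 36 h later. The treatment label of the heart samples names a lung harvest, so the time is taken to hold for the heart too. PBS-treated hearts of both genotypes (3 arrays each) and lungs of both genotypes under PM (3 arrays each) served to set the heart difference beside a heart without PM and beside lung. The series text speaks of 3 animals per group. Nothing else says that each array came from its own animal, so p-values set a difference against the spread between arrays. In the heart comparisons that spread was estimated from all 12 heart arrays, PBS hearts included. The number of founder lines behind the dnCREB mice was not given in the sources used here.

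CREB1 is a transcription factor that binds the cyclic AMP response element (CRE) in promoters and is activated by phosphorylation, in heart muscle mainly downstream of the beta-adrenergic receptors through protein kinase A. A dominant negative form interferes with activation of target genes by CREB1 and its relatives, and mice with such a form in heart muscle are known to develop dilated cardiomyopathy. Failing ventricles in general are known for re-expression of fetal muscle genes, for matrix deposition by fibroblasts and for lower expression of genes of fatty acid oxidation and mitochondrial respiration.

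Values are GCRMA expression values on a log2 scale, so a difference of 1 is a 2-fold difference. Arrays are given in the order of replicates 1, 2 and 3. The 3 dnCREB PM hearts correlated with each other at r = 0.988 to 0.992 over all probe sets and the 3 WT PM hearts at r = 0.995 to 0.996, against 0.981 to 0.986 between the genotypes. No arrays were identical. Sex-chromosome genes went against the labels: the female-specific transcript Xist read 2.94, 3.05 and 13.71 in dnCREB PM hearts, against 12.99, 12.54 and 12.83 in WT PM hearts. The Y-linked gene Eif2s3y read 11.29, 10.26 and 3.09 in dnCREB PM hearts, against 3.14, 3.27 and 3.32 in WT PM hearts. Only dnCREB PM replicate 3 therefore matched the WT PM hearts in this class. Genes of the X and Y chromosomes were left out, and counts are also given with the class in the model. In that fit the difference under PM equals dnCREB PM replicate 3 less the mean of the WT PM hearts, so 1 array carries it. The part of the class in the results was not tested otherwise.

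The label of the tissue held against its markers. The mean of 10 cardiomyocyte markers was 15.83, 15.64 and 15.72 in dnCREB PM hearts, against 15.72, 15.81 and 15.75 in WT PM hearts. Of 9 atrial and pulmonary vein muscle genes on the array, 5 (Myl7, Sln, Bmp10, Gja5 and Tbx5) stayed under 4 in all 6 hearts, and the other 4 were expressed. The atrial light chain Myl4 read 6.13, 8.18 and 9.85 in dnCREB PM hearts, against 5.27, 5.30 and 5.32 in WT PM hearts, and was not called, while Nppa and Dkk3 were called higher. Stard10 went the other way, at 6.47, 8.16 and 7.93 in dnCREB PM hearts, against 8.42, 8.99 and 8.58 in WT PM hearts. It did not overlap and was not called. The mean of the 9 was 5.49, 5.75 and 6.10 in dnCREB PM hearts, against 4.82, 4.91 and 5.02 in WT PM hearts, without overlap, and the part of atrial muscle in the results was not tested. Of 10 skeletal muscle genes 9 stayed under 4. The mean of 10 fibroblast markers was 12.54, 13.03 and 13.58 in dnCREB PM hearts, against 12.02, 11.62 and 11.64 in WT PM hearts, so the groups did not overlap. The mean of 10 macrophage markers was 8.96, 9.03 and 9.37 in dnCREB PM hearts, against 8.09, 7.70 and 7.23 in WT PM hearts, and these did not overlap either. Means of lymphatic endothelial, mesothelial and epicardial, and Schwann cell and neuron markers were likewise higher in dnCREB without overlap. So were pericyte and smooth muscle markers, by a narrow margin (10.60, 10.38 and 10.32 in dnCREB PM hearts, against 10.27, 10.05 and 10.19 in WT PM hearts). Endothelial markers averaged 12.12, 10.71 and 10.88 in dnCREB PM hearts, against 10.83, 10.63 and 10.75 in WT PM hearts. There dnCREB PM replicate 1 stood apart from the other 5 arrays. In bulk ventricle, fewer cells of a type and less RNA per cell cannot be told apart, nor can more cells and more RNA per cell.

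Over the 9661 genes tested, 1969 (20.4%) differed at an adjusted p under 0.05 in limma's moderated test with Benjamini-Hochberg adjustment. Of these, 1099 (11.4%) were higher and 870 (9.01%) lower in dnCREB. A 2-fold difference or more was reached by 628 of the higher and 318 of the lower genes (9.79% of all tested, both directions). In 3531 genes (36.5%) the 3 dnCREB PM arrays and the 3 WT PM arrays did not overlap. The median difference over all genes was 0.02. How arrays were centred moved the split: 55.8% of the called genes were higher as deposited, 60.7% after each array was centred on its own median, and 42.1% (964 higher, 1325 lower) after centring on the median of the genes tested, which moved the median to −0.10. With the sex-chromosome class in the model, 473 genes were higher and 434 lower. With the fit limited to the 6 arrays, 713 were higher and 438 lower. Without WT PM replicate 1, 2 or 3 the count was 1459, 1359 and 1334 genes, and without dnCREB PM replicate 1, 2 or 3 it was 1462, 2063 and 1314.

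The rises of largest fitted size were in extracellular matrix genes. Ccn5, a matricellular protein of the CCN family, read 8.84, 10.05 and 9.22 in dnCREB PM hearts, against 1.79, 2.45 and 1.86 in WT PM hearts. Ltbp2, which binds elastic microfibrils, read 9.38, 8.70 and 8.48 in dnCREB PM hearts, against 1.60, 2.12 and 1.75 in WT PM hearts. Both lay under the level of 4, used here as the limit of detection, in every WT PM heart and well above it in every dnCREB PM heart. Against that level Ccn5 was at least 41.3-fold higher (difference 7.33 ± 0.35, SE, adjusted p = 1.8e-06, limma) and Ltbp2 at least 28.9-fold higher (7.03 ± 0.38, adjusted p = 3.7e-06, limma). Comp, the cartilage oligomeric matrix protein, read 10.53, 10.23 and 11.13 in dnCREB PM hearts, against 4.77, 4.14 and 4.16 in WT PM hearts, a 77.5-fold difference. Its WT PM values lay close above 4, where low values are compressed, so the size of that fold is uncertain. Of the 10 cartilage and valve markers, which include Comp, 6 (Acan, Col2a1, Chad, Cnmd, Scx and Tnmd) stayed under 4 in these hearts. Sox9 read 7.04, 7.41 and 7.94 in dnCREB PM hearts, against 6.87, 7.42 and 7.22 in WT PM hearts, and Fmod 4.18, 7.53 and 8.21 in dnCREB PM hearts, against 5.39, 5.16 and 4.98 in WT PM hearts. The mean of the 10 was 4.14, 4.52 and 4.69 in dnCREB PM hearts, against 3.66, 3.67 and 3.65 in WT PM hearts, and its part in the results was not tested. Cilp, the cartilage intermediate layer protein that fibroblasts also make, was higher by 5.91 in dnCREB. Mfap4, a microfibril-associated protein, was 45.7-fold higher with the 1 WT PM array under 4 set to 4. Ecrg4, a secreted precursor peptide, read 5.06, 10.39 and 10.94 in dnCREB PM hearts, against 3.06, 3.16 and 3.19 in WT PM hearts, with replicate 1 far below the other dnCREB arrays.

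Other genes among the 12 largest rises were of muscle, metabolism and the acute phase. Nox4, an NADPH oxidase that makes hydrogen peroxide, read 8.07, 6.05 and 8.46 in dnCREB PM hearts, against 2.06, 2.08 and 2.07 in WT PM hearts, at least 11.5-fold higher. Nmrk2, a muscle nicotinamide riboside kinase of NAD synthesis, read 10.60, 12.19 and 11.16 in dnCREB PM hearts, against 5.19, 5.36 and 7.19 in WT PM hearts. Eno2, the enolase named for neurons, read 10.20, 7.38 and 8.87 in dnCREB PM hearts, against 4.25, 3.40 and 2.89 in WT PM hearts, 26.6-fold higher with the 2 WT PM arrays under 4 set to 4. Groups without overlap were a condition for a place among the 12. Apod, a lipocalin that carries small lipids, read 13.84, 13.31 and 11.43 in dnCREB PM hearts, against 7.24, 6.40 and 8.78 in WT PM hearts (5.39 ± 1.10, adjusted p = 0.0080, limma). In Apod the lowest dnCREB array was replicate 3, and with the sex-chromosome class in the model the adjusted p was 0.14.

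**Figure D1:**
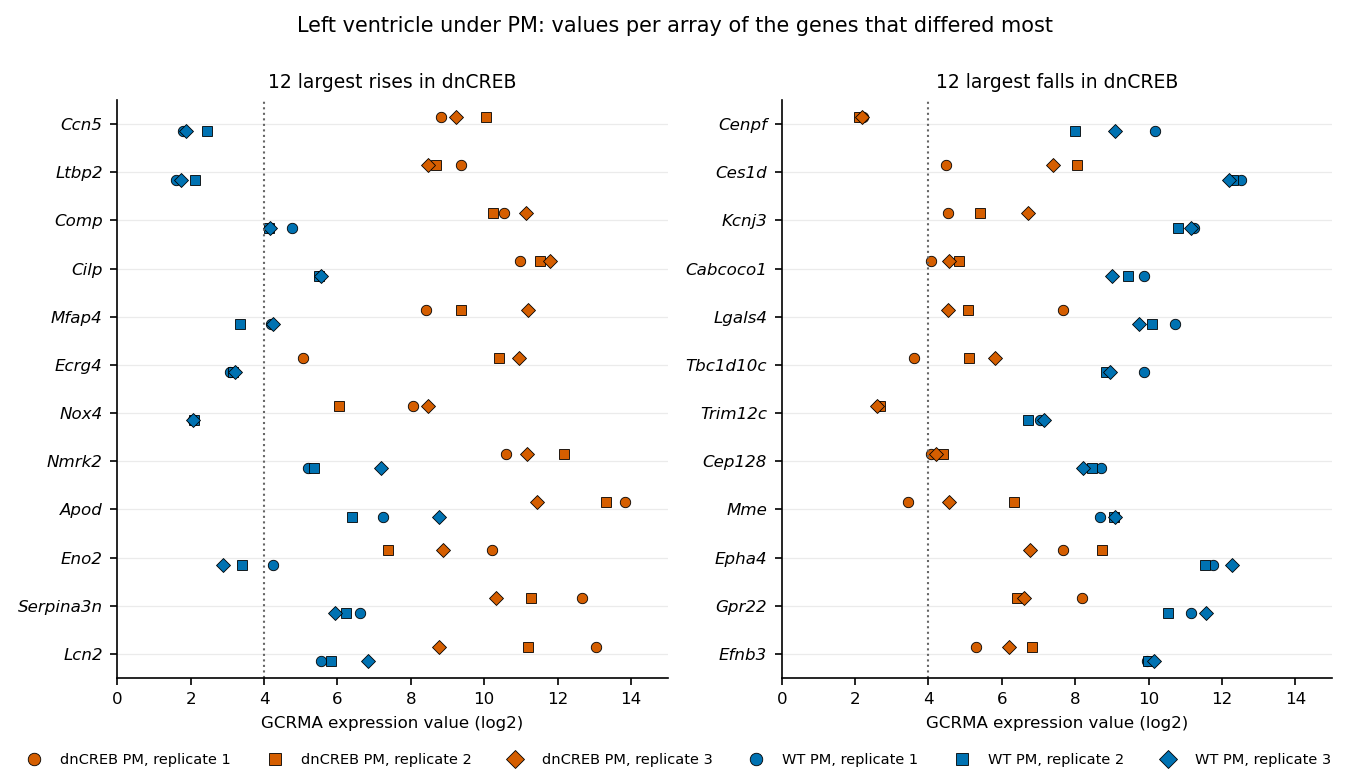
GCRMA log2 expression values (x axis) of the 12 genes with the largest rises (left) and the 12 with the largest falls (right) among those called, 1 symbol per left ventricle array, with dnCREB PM in orange and WT PM in blue and the replicate as the symbol's shape. The dotted line marks the log2 level of 4. The 24 genes were drawn from those whose 2 groups did not overlap, with predicted genes skipped, so the lack of overlap was set by that choice. The dnCREB PM arrays of Ecrg4, Ces1d and Lcn2 spread more widely than the WT PM arrays.

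The falls of largest size were in genes of several kinds. Cenpf, a kinetochore and microtubule-binding protein, read 2.21, 2.09 and 2.20 in dnCREB PM hearts, against 10.18, 7.99 and 9.09 in WT PM hearts. It was at least 34.0-fold lower in dnCREB (−6.92 ± 1.11, adjusted p = 0.0024, limma). Of the 26 cell cycle genes tested, 3 others were called, all higher (11.5%, beside 11.4% of all genes). They were Ccnd2 (1.54), Ccnd1 (1.73) and Cdkn2c (1.30). Ccnd1 and Cdkn2c lost their calls without WT PM replicate 2 or 3 or dnCREB PM replicate 2 or 3, and Cdkn2c also without WT PM replicate 1 (adjusted p 0.055 to 0.099). Ces1d, a carboxylesterase that hydrolyses triglycerides, read 4.49, 8.04 and 7.40 in dnCREB PM hearts, against 12.53, 12.31 and 12.20 in WT PM hearts, a 52.1-fold lower level. The mean of 8 adipocyte markers was 3.33, 4.11 and 4.22 in dnCREB PM hearts, against 5.14, 4.35 and 4.53 in WT PM hearts, also lower without overlap. Of these 8, 5 stayed under 4 in all 6 hearts, and neither of the 2 tested was called. The part of adipocytes in the results was not tested. Kcnj3, a subunit of the acetylcholine-gated potassium channel, read 4.52, 5.40 and 6.72 in dnCREB PM hearts, against 11.25, 10.81 and 11.17 in WT PM hearts, 46.3-fold lower. The WT PM hearts were tight in both genes and the dnCREB PM hearts were spread.

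Cep128, a centriole protein, and Trim12c, a TRIM-family gene, were called with the smallest adjusted p in the comparison, 9.3e-08 each. Cep128 read 4.06, 4.38 and 4.21 in dnCREB PM hearts, against 8.71, 8.46 and 8.22 in WT PM hearts. Trim12c read 2.61, 2.68 and 2.59 in dnCREB PM hearts, against 7.05, 6.71 and 7.16 in WT PM hearts. Their arrays lay closer together within each genotype than those of most large changes. All dnCREB PM arrays of Trim12c lay under 4, and those of Cep128 just above it, where low values are compressed. Their closeness in dnCREB therefore carries little information. Against the level of 4, Trim12c was at least 7.85-fold lower. Mme, the peptidase neprilysin that degrades natriuretic peptides, read 3.44, 6.32 and 4.56 in dnCREB PM hearts, against 8.67, 9.05 and 9.09 in WT PM hearts, 15.7-fold lower with the 1 dnCREB array under 4 set to 4. Epha4, an ephrin receptor, was 17.6-fold lower and Efnb3, an ephrin ligand, 15.1-fold lower. Gpr22, an orphan receptor of heart and brain, was 16.2-fold lower. Cabcoco1 (31.0-fold), Lgals4 (21.5-fold) and Tbc1d10c (19.0-fold, with 1 dnCREB array set to 4) complete the 12.

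Creb1 itself was measured by 6 probe sets that disagreed. The probe set with the largest difference read 9.05, 10.68 and 11.44 in dnCREB PM hearts, against 2.51, 2.86 and 2.57 in WT PM hearts (at least 83.9-fold higher against the level of 4, adjusted p = 1.8e-04 over all probe sets, limma). A second read 8.42, 9.64 and 10.43 in dnCREB PM hearts, against 5.75, 6.03 and 6.73 in WT PM hearts (3.33 ± 0.64, adjusted p = 0.0070, limma). In both, replicate 1 was the lowest of the dnCREB arrays and replicate 3 the highest. Another probe set was lower in dnCREB (9.66 ± 0.33 against 10.48 ± 0.28, SD, n = 3 each; adjusted p = 0.0186, limma). The probe set used for the gene, which has the highest mean over the series, averaged 8.56 ± 0.78 in dnCREB and 9.28 ± 0.39 in WT (SD, n = 3 each), and the difference of −0.72 did not pass (adjusted p = 0.17, limma). Which probe sets lie in the transgene was not tested.

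Of 15 genes of the CREB family and its coactivators, 3 rose and 0 fell, that is 20.0% higher against 11.4% of all genes, with a median difference of 0.21. Creb3l2, a membrane-bound relative processed in the Golgi, was 3.56-fold higher (8.67, 8.41 and 9.06 in dnCREB PM hearts, against 7.37, 6.65 and 6.63 in WT PM hearts). Atf5 (0.86) lost its call without WT PM replicate 2 or 3 or dnCREB PM replicate 1 or 2, and Creb3l1 (0.45) without WT PM replicate 1 or 3 or dnCREB PM replicate 2 or 3 (adjusted p 0.068 to 0.15). Crem, whose short form represses CREB targets, differed by 1.14 (adjusted p = 0.10) and the coactivators Crebbp (0.16), Ep300 (−0.03) and Crtc3 (0.22) by less. Among 23 genes known as CREB targets from other systems, 2 rose and 2 fell (8.70% each way, beside 11.4% and 9.01% of all genes). The median difference was −0.09 (0.18 without dnCREB PM replicate 3). Bcl2, which blocks apoptosis, read 9.06, 9.55 and 9.31 in dnCREB PM hearts, against 7.76, 6.52 and 7.23 in WT PM hearts, 4.40-fold higher (adjusted p = 0.0024, limma). Pde4d, a cyclic AMP phosphodiesterase, was 3.40-fold lower, and Rgs2, a brake on G protein signalling, 3.17-fold lower (adjusted p = 0.013, and 0.050 without WT PM replicate 3). The immediate-early gene Egr2 (2.19) lost its call without any of 5 single arrays (adjusted p 0.060 to 0.085), the exception being dnCREB PM replicate 1. Fos (−1.18), Nr4a1 (−0.28), Per1 (−0.25) and Ppargc1a (−0.85, adjusted p = 0.52) did not pass.

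Promoters were searched for the CRE because the transgene acts on the factor that binds it. The RefSeq table of build GRCm38.p6 gave a window from 250 bases before to 50 after the start site for 7837 of the genes tested. The palindrome TGACGTCA, which reads the same on both strands, lay in 3.03% of the windows of genes that rose, 2.79% of those that fell and 3.53% of all tested. The shorter core TGACG, searched on both strands and contained in the palindrome, lay in 28.7% of the windows of genes that rose, 32.7% of those that fell and 36.0% of all tested. Of the called genes in the gene lists, 7 had the palindrome. Windows of 68 bases around it are shown for 2 respiratory chain genes that fell and 2 muscle genes that rose, with the palindrome in capitals, to show that it sits in genes called in opposite directions.
Ndufb2 (chr6:39592521-39592588, plus strand): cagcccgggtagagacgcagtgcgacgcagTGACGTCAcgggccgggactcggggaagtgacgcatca
Uqcrfs1 (chr13:30545308-30545375, minus strand): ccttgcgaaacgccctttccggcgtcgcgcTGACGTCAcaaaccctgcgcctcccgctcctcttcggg
Rcan1 (chr16:92400216-92400283, minus strand): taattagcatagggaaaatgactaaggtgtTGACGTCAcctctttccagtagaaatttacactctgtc
Pdlim3 (chr8:45885409-45885476, plus strand): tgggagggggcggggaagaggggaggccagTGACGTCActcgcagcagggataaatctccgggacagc
The first base of the palindrome lies at −14 in Ndufb2, −29 in Uqcrfs1, −175 in Rcan1 and −48 in Pdlim3, counted from the start site. The differences under PM were −0.53 in Ndufb2, −0.50 in Uqcrfs1, 1.97 in Rcan1 and 1.59 in Pdlim3 (1.41 and no longer called without WT PM replicate 2).

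Genes of the fetal and stretch programme rose in 7 (43.8%, beside 11.4% of all genes) and fell in 2 (12.5%, beside 9.01%) of 16 tested. Their median difference was 0.58, and 8 of the 9 calls held without any 1 array. The natriuretic peptide Nppa, which ventricles express before birth, read 15.74, 15.39 and 15.61 in dnCREB PM hearts, against 13.49, 13.42 and 14.18 in WT PM hearts, 3.69-fold higher (adjusted p = 0.0041, limma). Nppb, the B-type peptide used as a marker of wall stress, read 14.70, 14.16 and 14.43 in dnCREB PM hearts, against 11.88, 12.12 and 11.31 in WT PM hearts, 6.32-fold higher. Neither gene's groups overlapped. Ankrd1, a stretch-responsive ankyrin repeat protein (1.92-fold), Ankrd23 (2.42-fold), skeletal actin Acta1 (3.32-fold) and the calcineurin regulator Rcan1 (1.97, log2) also rose. Myh7, the slow myosin heavy chain of the fetal ventricle, read 15.30, 15.12 and 15.24 in dnCREB PM hearts, against 11.66, 11.01 and 14.34 in WT PM hearts. WT PM replicate 3 lay well above the other WT arrays, and the 7.38-fold difference (adjusted p = 0.023) lost its call without WT PM replicate 1 or 2 or dnCREB PM replicate 1 or 3 (adjusted p 0.059 to 0.080). Myh6, the fast adult chain, read 17.54, 17.29 and 17.42 in dnCREB PM hearts, against 17.54, 17.69 and 17.44 in WT PM hearts, and did not pass (−0.15, adjusted p = 0.40). Hopx, a homeodomain-only cofactor, fell 3.87-fold and Myh7b by 1.90. With the sex-chromosome class in the model 6 of the 9 calls remained. Acta1 and Myh7 were among those lost (adjusted p = 0.073 and 0.15).

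Sarcomere and Z disc genes had 3 higher (10.7%, beside 11.4% of all genes) and 4 lower (14.3%, beside 9.01%) of 28 and a median of −0.04. Synpo2l, an actin-binding Z disc protein, was 3.07-fold higher and Pdlim3, also of the Z disc, 3.02-fold (lost without WT PM replicate 2, 1.41, adjusted p = 0.058). Cmya5 fell 1.88-fold and Nebl 1.70-fold. The third higher gene was desmin, Des (0.78), and the other two lower ones were Tnni3 (−0.41) and Mypn (−0.39). Des lost its call without WT PM replicate 1 or 2 or dnCREB PM replicate 1, Tnni3 without any array but dnCREB PM replicate 1, and Mypn without any array but dnCREB PM replicate 2 (adjusted p 0.058 to 0.13).

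Potassium channel genes fell more often than the 9.01% of all genes: 8 of 19 tested were lower and 1 higher, with a median of −0.95. Besides Kcnj3, its partner subunit Kcnj5 fell (−0.96). Kcnd2, which carries the fast transient outward current in mouse ventricle, read 8.37, 7.95 and 8.45 in dnCREB PM hearts, against 10.81, 10.17 and 10.84 in WT PM hearts, 5.09-fold lower (adjusted p = 2.6e-04, limma). Kcnd3 of the same current fell by 1.15. Kcnh2, of the rapid delayed rectifier, fell 2.95-fold, and Kcnq1, of the slow one, by 1.12. Abcc9, the sulfonylurea receptor of ATP-sensitive channels, fell 2.04-fold and the background channel Kcnk3 by 0.95. These 8 genes held their calls without any 1 array, and 7 of the 9 calls remained with the sex-chromosome class in the model. The higher gene, Kcnj14 (at least 8.42-fold), read 4.02, 10.58 and 6.62 in dnCREB PM hearts, against 2.46, 2.40 and 2.48 in WT PM hearts, and lost its call without dnCREB PM replicate 3 or any WT PM array (adjusted p 0.059 to 0.071). Kcna5 (−2.10, adjusted p = 0.19) and Kcnip2 (−0.74, adjusted p = 0.10) did not pass, and Kcnj2 was not tested because it did not exceed 4 in 3 heart arrays.

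Calcium handling genes fell in 6 of 20 and rose in 1, where 9.01% of all genes fell and 11.4% rose, with a median of −0.26, although 3 fell when WT PM replicate 2 or 3 or dnCREB PM replicate 3 was left out. Hrc, the histidine-rich calcium-binding protein of the sarcoplasmic reticulum, read 10.65, 11.80 and 11.00 in dnCREB PM hearts, against 12.63, 12.85 and 12.52 in WT PM hearts, 2.86-fold lower. Tmem38a, a counter-ion channel of the same membrane, fell 1.81-fold. Camk2a (−0.81) lost its call without WT PM replicate 3 or dnCREB PM replicate 3 (adjusted p = 0.053 and 0.054). The calcium pump Atp2a2 read 15.46, 15.27 and 15.43 in dnCREB PM hearts, against 15.65, 15.69 and 15.57 in WT PM hearts. Its groups did not overlap, yet the difference of −0.25 did not pass (adjusted p = 0.10). Its inhibitor phospholamban, Pln, differed by −0.26 (adjusted p = 0.08). Orai1, the pore of store-operated calcium entry, rose 3.35-fold.

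Of 10 calcium channel, sodium channel and sodium pump genes, 4 rose (40.0%, beside 11.4% of all genes) and 2 fell (20.0%, beside 9.01%). These 6 calls held without any 1 array. The pore subunit of the L-type calcium channel, Cacna1c, fell 1.75-fold and the gamma subunit Cacng6 by 1.21. The pump regulator Fxyd6 read 10.58, 11.56 and 11.21 in dnCREB PM hearts, against 8.27, 7.90 and 8.76 in WT PM hearts, 6.99-fold higher. Fxyd5 of the same family rose 6.36-fold, the sodium channel Scn7a 2.60-fold and the pump subunit Atp1b1 by 0.71. In junctions and conduction factors, 2 of 22 rose and 3 fell, shares of 9.09% and 13.6% that lie near the 11.4% and 9.01% of all genes. The connexins Gjc1 (2.11-fold higher) and Gja3 (2.25-fold lower) kept their calls without any 1 array. Dsg2 (−1.29) lost its call without WT PM replicate 1 or dnCREB PM replicate 3, Popdc2 (0.57) without WT PM replicate 1 or 3 or dnCREB PM replicate 1 or 3, and Mef2a (−0.44) without WT PM replicate 1 or 3 or dnCREB PM replicate 2 or 3 (adjusted p 0.050 to 0.12). In all, 5 genes were lower without dnCREB PM replicate 1. The main ventricular connexin Gja1 differed by −0.20 (adjusted p = 0.37).

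The pathway upstream of CREB was measured through 25 genes of adrenergic receptors and cyclic AMP turnover. Of these, 9 rose (36.0%, beside 11.4% of all genes) and 3 fell (12.0%, beside 9.01%). Their median was 0.05, and −0.07 with arrays centred on the median of the genes tested. Adcy7, an adenylyl cyclase of non-muscle cells, read 10.69, 10.72 and 11.42 in dnCREB PM hearts, against 8.69, 7.77 and 8.52 in WT PM hearts, 6.14-fold higher (adjusted p = 5.0e-04, limma). Adcy6, a main cyclase of heart muscle, fell by 0.93 but not without WT PM replicate 1 or 3 (adjusted p = 0.062 and 0.059). Genes of inhibitory G protein subunits were among those called higher, namely Gnai1 (2.89), Gnai2 (1.55-fold) and Gnai3 (1.08, adjusted p = 0.053 without WT PM replicate 3). Pde3b rose 4.25-fold. The receptor kinase Grk5 (1.38) lost its call without WT PM replicate 2 or dnCREB PM replicate 1 (adjusted p = 0.056 and 0.051). Of the 12 calls, 6 held without any 1 array and 4 remained with the sex-chromosome class in the model.

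In renin-angiotensin and natriuretic signalling, 2 of 15 genes rose (13.3%, beside 11.4% of all genes) and 4 fell (26.7%, beside 9.01%). All 6 calls held without any 1 array. The rises numbered 4 without dnCREB PM replicate 2 or 3. Ace, which makes angiotensin II, read 11.35, 11.19 and 11.12 in dnCREB PM hearts, against 8.02, 8.22 and 8.11 in WT PM hearts. That was 8.59-fold higher, with arrays of each genotype within narrow bounds (3.10 ± 0.14, adjusted p = 1.4e-06, limma). The angiotensin receptor Agtr1a fell 3.08-fold (8.23, 8.58 and 8.17 in dnCREB PM hearts, against 10.17, 10.02 and 9.67 in WT PM hearts). The mineralocorticoid receptor Nr3c2 fell by 1.20 and endothelin 3, Edn3, 2.25-fold. Npr3, the clearance receptor for natriuretic peptides, rose by 1.86, while Mme, which degrades them, fell as described.

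**Figure D2:**
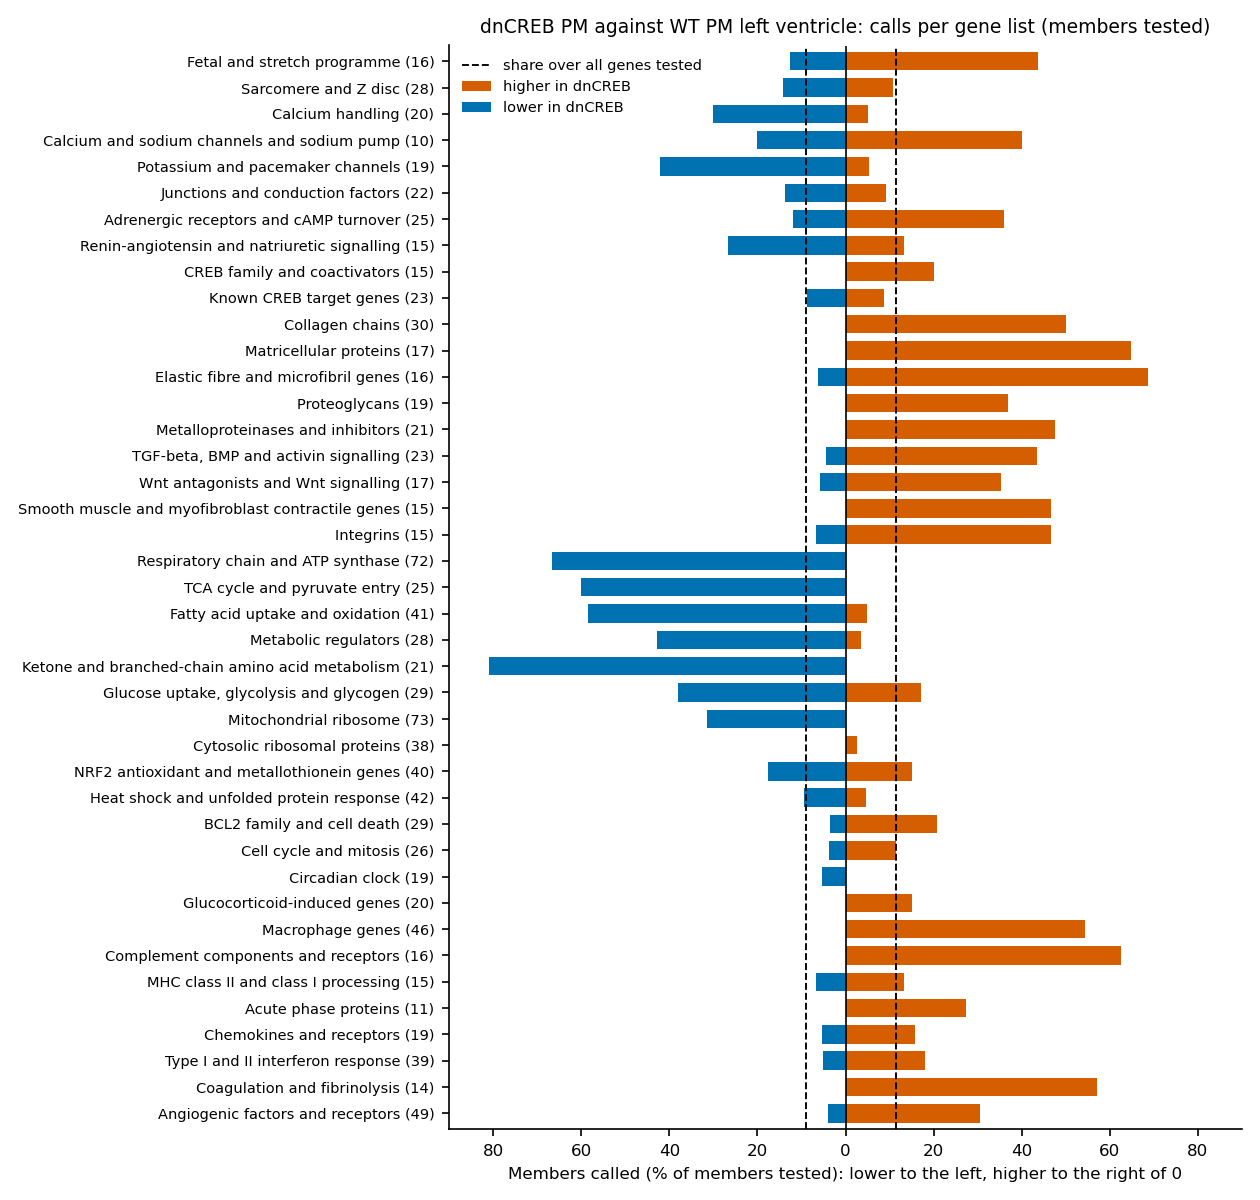
Share of the members tested in each gene list that were called lower (blue, left of 0) or higher (orange, right of 0) in dnCREB PM against WT PM left ventricle, in percent, with the number of members tested in brackets and the shares over all genes tested as dashed lines at 9.01% and 11.4%. The lists that reach farthest right are elastic fibre genes (68.8%), matricellular proteins (64.7%) and complement (62.5%), and those that reach farthest left are ketone and branched-chain amino acid metabolism (17 of 21) and the respiratory chain (66.7%).

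Matrix genes rose across every class listed. Among collagen chains and their processing enzymes 15 of 30 rose and 0 fell (median 1.26). Matricellular proteins rose in 11 of 17 (median 1.47), elastic fibre and microfibril genes in 11 of 16 with 1 fall (median 1.83), proteoglycans in 7 of 19 (median 0.79), and metalloproteinases and inhibitors in 10 of 21 (median 0.73). Over all genes 11.4% rose and the median was 0.02. The fibroblast markers moved with these lists: 7 of 10 were called higher, 0 were under 4, and their means are given above. Some of the called markers, such as Col1a1, Dcn and Mfap5, are matrix genes also given with these lists. The markers and the lists are therefore not independent. The part of fibroblast number in the result was not tested.

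Of the fibrillar collagens, Col1a1 read 10.26, 11.63 and 12.48 in dnCREB PM hearts, against 8.96, 8.91 and 8.54 in WT PM hearts (2.65, adjusted p = 0.0036, limma). Col5a2 rose 4.76-fold. Col3a1 read 12.70, 14.25 and 15.01 in dnCREB PM hearts, against 13.29, 12.87 and 12.60 in WT PM hearts, and dnCREB PM replicate 1 overlapped the WT arrays. Col8a1, a short-chain collagen, rose 9.33-fold, and the basement membrane chain Col4a1 2.30-fold. The crosslinking enzymes Lox (at least 3.89-fold), Loxl1 (3.94-fold) and Loxl3 (1.69, log2) rose with them. Of the 15 collagen calls, 13 held without any 1 array and 12 remained with the sex-chromosome class in the model.

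Postn, periostin, which activated fibroblasts secrete, read 14.31, 13.64 and 15.67 in dnCREB PM hearts, against 10.45, 9.68 and 9.93 in WT PM hearts, 22.9-fold higher (adjusted p = 3.4e-04, limma). Ccn2, connective tissue growth factor, read 15.26, 14.51 and 14.95 in dnCREB PM hearts, against 12.28, 11.55 and 12.97 in WT PM hearts. The groups of both genes lay well apart. Thbs3 (3.00, with 2 WT PM arrays under 4), Sparc (1.47) and Mgp (1.32) also rose, and Fn1 (0.86, adjusted p = 0.29) and Thbs4 (1.53, adjusted p = 0.051) did not pass. Elastin, Eln, read 12.30, 10.62 and 12.25 in dnCREB PM hearts, against 8.35, 7.42 and 9.04 in WT PM hearts (3.45, adjusted p = 0.0015, limma). Mfap5 rose 8.85-fold, Fstl1, a secreted follistatin-like protein, 5.56-fold and Ltbp3, which holds latent TGF-beta, 3.65-fold. Emilin2 was the exception among the elastic fibre genes and fell by 2.68.

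The large proteoglycan versican, Vcan, read 10.39, 10.20 and 11.04 in dnCREB PM hearts, against 7.75, 6.51 and 7.21 in WT PM hearts, 10.5-fold higher (adjusted p = 1.7e-04, limma). Small leucine-rich proteoglycans differed among themselves: Prelp rose 3.73-fold, Aspn 3.57-fold and Dcn 1.66-fold, whereas Lum (0.25, adjusted p = 0.71) and Ogn (−0.35, adjusted p = 0.56) did not pass. The gelatinase Mmp2 read 12.43, 11.79 and 12.15 in dnCREB PM hearts, against 10.37, 9.70 and 10.29 in WT PM hearts, 4.01-fold higher. Its inhibitor Timp2 rose 2.60-fold and Adamtsl2, a microfibril-binding relative of the ADAMTS proteases, 4.93-fold. Mmp3 (−0.42), Mmp9 (0.11) and Timp4 (−1.11) did not pass.

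Signals of the TGF-beta family moved with the matrix, with 10 of 23 higher (43.5%, beside 11.4% of all genes), 1 lower (4.35%, beside 9.01%) and a median of 0.91. The ligand Tgfb2 read 11.81, 12.14 and 12.47 in dnCREB PM hearts, against 8.03, 7.78 and 8.05 in WT PM hearts, 18.2-fold higher (4.19 ± 0.34, adjusted p = 1.2e-04, limma). Tgfb3 read 8.84, 10.03 and 10.41 in dnCREB PM hearts, against 6.51, 5.60 and 5.74 in WT PM hearts, 14.0-fold higher. For Tgfb1 the difference was 0.91, and the call was lost without dnCREB PM replicate 1 or any WT PM array (adjusted p 0.071 to 0.12). Both receptors Tgfbr1 (1.33) and Tgfbr2 (1.33) were called, the first not without WT PM replicate 2 or dnCREB PM replicate 1 or 3 (adjusted p 0.053 to 0.057). The induced matrix protein Tgfbi rose 4.17-fold and the BMP antagonist Nbl1 10.1-fold. Of the 11 calls, 7 remained with the sex-chromosome class in the model. Among Wnt genes 6 of 17 rose (35.3%, beside 11.4% of all genes) and 1 fell (5.88%, beside 9.01%). Frzb, a secreted antagonist, read 10.48, 11.02 and 10.84 in dnCREB PM hearts, against 6.92, 5.39 and 6.95 in WT PM hearts, 20.6-fold higher. Dkk3 (19.4-fold with 2 WT PM arrays set to 4) and Nkd2 (6.46-fold), also antagonists of the pathway or named with them, rose, and the ligand Wnt5a fell by 2.03. Sfrp2 read 2.37, 9.07 and 9.10 in dnCREB PM hearts, against 2.38, 2.40 and 2.42 in WT PM hearts. There dnCREB PM replicate 1 sat at the WT level, and the difference of 4.45 did not pass (adjusted p = 0.051).

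In a list of contractile and related genes of smooth muscle and myofibroblasts, 7 of 15 rose (46.7%, beside 11.4% of all genes) and 0 fell. Meox1, a homeobox gene of activated fibroblasts, read 6.75, 6.63 and 9.22 in dnCREB PM hearts, against 3.55, 3.58 and 3.46 in WT PM hearts, at least 11.6-fold higher (adjusted p = 0.0012, limma). Myl9 rose 3.51-fold and Vim 2.54-fold, whereas Acta2 (0.75, adjusted p = 0.22) and Myh11 (−0.16, adjusted p = 0.86) did not pass. Mylk was not called, and Cnn1 stayed under 4 in all 6 hearts. Tagln read 10.18, 9.84 and 9.89 in dnCREB PM hearts, against 9.15, 8.87 and 9.12 in WT PM hearts, and was not called. With the sex-chromosome class in the model 3 of the 7 calls remained. Integrins rose in 7 of 15 (46.7%, beside 11.4% of all genes) and fell in 1 (6.67%, beside 9.01%). Itgbl1, an integrin-like secreted protein, read 11.33, 11.95 and 12.21 in dnCREB PM hearts, against 8.19, 7.75 and 8.54 in WT PM hearts, 12.7-fold higher, and Itga1, Itga9 and Itgb5 rose 2.90-fold, 4.38-fold and 2.87-fold.

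Genes of mitochondrial metabolism fell together by small amounts. In the respiratory chain and ATP synthase 48 of 72 fell and 0 rose, with a median of −0.44. The tricarboxylic acid cycle and pyruvate entry had 15 of 25 lower and 0 higher (median −0.52). Fatty acid uptake and oxidation had 24 of 41 lower and 2 higher (median −0.79), and ketone and branched-chain amino acid metabolism 17 of 21 lower and 0 higher (median −0.91). The mitochondrial ribosome had 23 of 73 lower and 0 higher (median −0.45), whereas cytosolic ribosomal proteins had 0 lower and 1 higher of 38 (median 0.02), Rpl41 at 0.43. Over all genes 9.01% fell. The counts depended on single arrays: the respiratory chain had 31 lower without WT PM replicate 1, 29 without WT PM replicate 2 and 28 without dnCREB PM replicate 3, and the mitochondrial ribosome 13 without dnCREB PM replicate 3 and 43 without replicate 2. At a fold of 1.5 or more, 11 respiratory chain genes and 8 of the tricarboxylic acid cycle were lower. With the sex-chromosome class in the model 12, 7, 16, 11 and 9 of the calls in these 5 lists remained, in the order given, while the medians of the 5 lists ran from −0.998 for ketone and branched-chain genes to −0.48 for the respiratory chain.

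Sdha, the flavoprotein of complex II, read 13.83, 13.98 and 13.63 in dnCREB PM hearts, against 14.74, 14.74 and 14.58 in WT PM hearts, 1.83-fold lower (−0.87 ± 0.12, adjusted p = 0.0013, limma). Ndufs4 and Ndufs1 of complex I fell 1.91-fold and 1.61-fold. Dld, a subunit shared by the pyruvate, oxoglutarate and branched-chain dehydrogenases, read 13.02, 12.94 and 13.04 in dnCREB PM hearts, against 14.15, 14.03 and 13.83 in WT PM hearts, 2.00-fold lower. Groups lay apart in each of these. Bckdhb and Dbt of the branched-chain complex fell 3.30-fold and 3.35-fold, and Mmut, the mutase that passes propionate carbon on to the cycle, 2.58-fold. Slc27a1, a fatty acid transporter, read 7.85, 7.64 and 7.72 in dnCREB PM hearts, against 10.11, 9.63 and 9.20 in WT PM hearts, 3.77-fold lower. Dgat2, which makes triglyceride, fell 3.30-fold, Etfb, an electron carrier of beta-oxidation, 2.15-fold, and Echs1, its hydratase, 1.82-fold. The 2 higher genes of fatty acid metabolism were Cpt1a (1.24), the liver form of the carnitine transferase, and Acsl5, an acyl-CoA synthetase, which read 9.36, 9.39 and 9.48 in dnCREB PM hearts, against 8.63, 8.02 and 7.95 in WT PM hearts.

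Regulators of this metabolism fell in 12 of 28 (42.9%, beside 9.01% of all genes) and rose in 1 (3.57%, beside 11.4%). Ppara, the fatty acid receptor that drives oxidation genes, read 10.08, 10.19 and 9.98 in dnCREB PM hearts, against 11.67, 11.31 and 11.31 in WT PM hearts, 2.54-fold lower (adjusted p = 0.0011, limma). Esrrg fell 1.66-fold and Prkaa2, a catalytic subunit of AMP kinase, 1.63-fold, while its gamma subunit Prkag2 rose 2.86-fold. Only 6 or 7 of the list were lower without WT PM replicate 1 or 2 or dnCREB PM replicate 3. Ppargc1a read 11.26, 10.44 and 10.57 in dnCREB PM hearts, against 11.69, 11.57 and 11.56 in WT PM hearts. The groups did not overlap and the difference of −0.85 did not pass, in a fit whose spread includes the PBS hearts. In glucose metabolism 5 of 29 rose (17.2%, beside 11.4% of all genes) and 11 fell (37.9%, beside 9.01%). Pfkp, the platelet form of phosphofructokinase, rose 3.24-fold and brain creatine kinase Ckb 2.08-fold, whereas Phkg1 fell 4.85-fold and Pfkfb2 1.98-fold. With single arrays left out the falls came to as few as 5, without dnCREB PM replicate 3.

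Of 40 antioxidant genes 6 were higher and 7 lower, not far from the 11.4% higher and 9.01% lower of all genes. Aldh1a1, the retinaldehyde dehydrogenase, read 11.51, 12.10 and 12.69 in dnCREB PM hearts, against 9.71, 9.12 and 9.54 in WT PM hearts, 6.25-fold higher. Gpx3, a secreted peroxidase, rose 2.96-fold. Gstk1, a mitochondrial glutathione transferase, fell 4.38-fold (10.21, 10.16 and 9.66 in dnCREB PM hearts, against 12.25, 12.15 and 12.03 in WT PM hearts). The count of falls was 4 without WT PM replicate 1 or 2 or dnCREB PM replicate 1 or 3. The aryl hydrocarbon receptor, which senses combustion products, has 6 listed genes tested, of which 2 rose (33.3%, beside 11.4% of all genes). Cyp1b1 read 9.22, 6.83 and 6.25 in dnCREB PM hearts, against 4.15, 4.03 and 4.04 in WT PM hearts, 10.3-fold higher with replicate 1 highest. Its WT PM values lay just above 4, so the size of that fold is uncertain. The repressor Tiparp rose by 0.82 (adjusted p = 0.052 without WT PM replicate 1), and neither call remained with the sex-chromosome class in the model. Among cell death genes 6 of 29 rose (20.7%, beside 11.4% of all genes) and 1 fell (3.45%, beside 9.01%). Casp12 rose 6.72-fold and the pro-apoptotic Bcl2l11 fell 2.92-fold, and 3 of the 7 calls remained with the class in the model. Heat shock and unfolded protein genes had 2 higher (4.76%, beside 11.4% of all genes) and 4 lower (9.52%, beside 9.01%) of 42.

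Macrophage genes rose in 25 of 46 and fell in 0, with a median of 1.40, against 11.4% of all genes. Csf1r, the receptor on which macrophages depend, read 9.85, 10.62 and 10.47 in dnCREB PM hearts, against 8.79, 8.68 and 8.03 in WT PM hearts, 3.51-fold higher (adjusted p = 0.0019, limma). Sirpa rose 2.18-fold, Ctsz, a lysosomal protease, 3.37-fold and the scavenger receptor Stab1 3.11-fold. The count was 16 without WT PM replicate 3, whose macrophage genes were the lowest. Lgals3, galectin 3, read 9.83, 7.47 and 6.75 in dnCREB PM hearts, against 3.16, 3.11 and 3.14 in WT PM hearts. It lost its call without dnCREB PM replicate 1 or any WT PM array (adjusted p 0.057 to 0.075). With the sex-chromosome class in the model 9 of the 25 calls remained, and the median was 1.49.

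Complement genes rose in 10 of 16 (62.5%, beside 11.4% of all genes). C1qb read 14.12, 14.38 and 14.07 in dnCREB PM hearts, against 12.57, 11.90 and 11.89 in WT PM hearts, higher by 2.07, and the inhibitor Serping1 rose 2.71-fold. The count was 6 without WT PM replicate 2, 4 without WT PM replicate 3 and 5 without dnCREB PM replicate 3, and 2 of the calls remained with the sex-chromosome class in the model. Other immune lists moved less. Chemokine genes rose in 3 of 19 (15.8%, beside 11.4% of all genes) and fell in 1 (5.26%, beside 9.01%), led by Cx3cl1 (7.17-fold higher). Ackr2 (2.29) lost its call without any WT PM array and Ccl11 (−1.97) without WT PM replicate 1 or 3 or dnCREB PM replicate 1 or 3 (adjusted p 0.066 to 0.11). Interferon response genes rose in 7 of 39 (17.9%, beside 11.4% of all genes) and fell in 2 (5.13%, beside 9.01%), with Ifit2 4.17-fold higher and Gbp6 3.44-fold lower, and the rises numbered 3 without WT PM replicate 2 or 3 and 2 without dnCREB PM replicate 3. Class II and class I antigen genes were called higher in 2 of 15 (13.3%) and lower in 1 (6.67%), shares near those of all genes. Neutrophil markers Csf3r, Mpo, Elane, Camp and Cxcr2 stayed under 4, although S100a8 read 13.01, 8.35 and 7.11 in dnCREB PM hearts, against 5.71, 8.41 and 3.09 in WT PM hearts.

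Among acute phase and glucocorticoid-induced genes, those called read highest in dnCREB PM replicate 1. Serpina3n, a protease inhibitor, read 12.68, 11.29 and 10.31 in dnCREB PM hearts, against 6.63, 6.25 and 5.92 in WT PM hearts, 35.7-fold higher (adjusted p = 0.0091, limma). Lcn2, the iron-scavenging lipocalin 2, read 13.05, 11.19 and 8.76 in dnCREB PM hearts, against 5.57, 5.82 and 6.83 in WT PM hearts. The groups of both genes lay apart, with replicate 1 highest. Lcn2 was 30.4-fold higher (adjusted p = 0.020) and lost its call without WT PM replicate 1 or 2 or dnCREB PM replicate 1 (adjusted p 0.058 to 0.065). Of 11 acute phase genes 3 rose (27.3%, beside 11.4% of all genes), the third being Lbp (10.6-fold). Serpina3n and Lbp held their calls without any 1 array, and none of the 3 remained called with the sex-chromosome class in the model. Glucocorticoid-induced genes rose in 3 of 20, and their mean level relative to the WT PM hearts was 1.75, 0.28 and 0.36 in dnCREB PM hearts, against −0.11, −0.37 and 0.48 in WT PM hearts. Fkbp5 (2.93), Map3k6 (2.61) and Lcn2 were the genes called. Fkbp5 lost its call without WT PM replicate 2 or dnCREB PM replicate 1 or 3, and Map3k6 without any array but dnCREB PM replicate 2 (adjusted p 0.054 to 0.15). In the same array the endothelial markers were highest, and Vwf read 13.71, 10.90 and 11.46 in dnCREB PM hearts, against 10.45, 9.75 and 10.19 in WT PM hearts (1.89, adjusted p = 0.067). The part of that array's makeup in these results was not tested.

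Coagulation and fibrinolysis genes rose in 8 of 14 (57.1%, beside 11.4% of all genes) and fell in 0 (median 1.44), and all 8 calls held without any 1 array. Plat, tissue plasminogen activator, read 11.70, 11.22 and 11.79 in dnCREB PM hearts, against 9.76, 9.68 and 9.70 in WT PM hearts, 3.61-fold higher (adjusted p = 1.7e-04, limma). Serpinf1, the antiangiogenic pigment epithelium-derived factor, rose 6.30-fold, Fgl2, a prothrombinase of immune cells, 3.96-fold and Anxa2, which binds plasminogen activators at the cell surface, 2.80-fold. Tissue factor F3 (−0.27), thrombomodulin Thbd (0.09) and Tfpi (−0.82, adjusted p = 0.14) did not pass. Angiogenic factors and receptors rose in 15 of 49 (30.6%, beside 11.4% of all genes) and fell in 2 (4.08%, beside 9.01%). Hbegf, a growth factor of the EGF family, read 9.89, 10.17 and 10.21 in dnCREB PM hearts, against 7.92, 7.68 and 7.88 in WT PM hearts, 4.80-fold higher, and Fgfr1 rose by 1.68. Vegfb (−0.63) and Igf2 (−1.26) were the genes that fell. Of these 17 calls, 9 remained with the sex-chromosome class in the model.

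**Figure D3:**
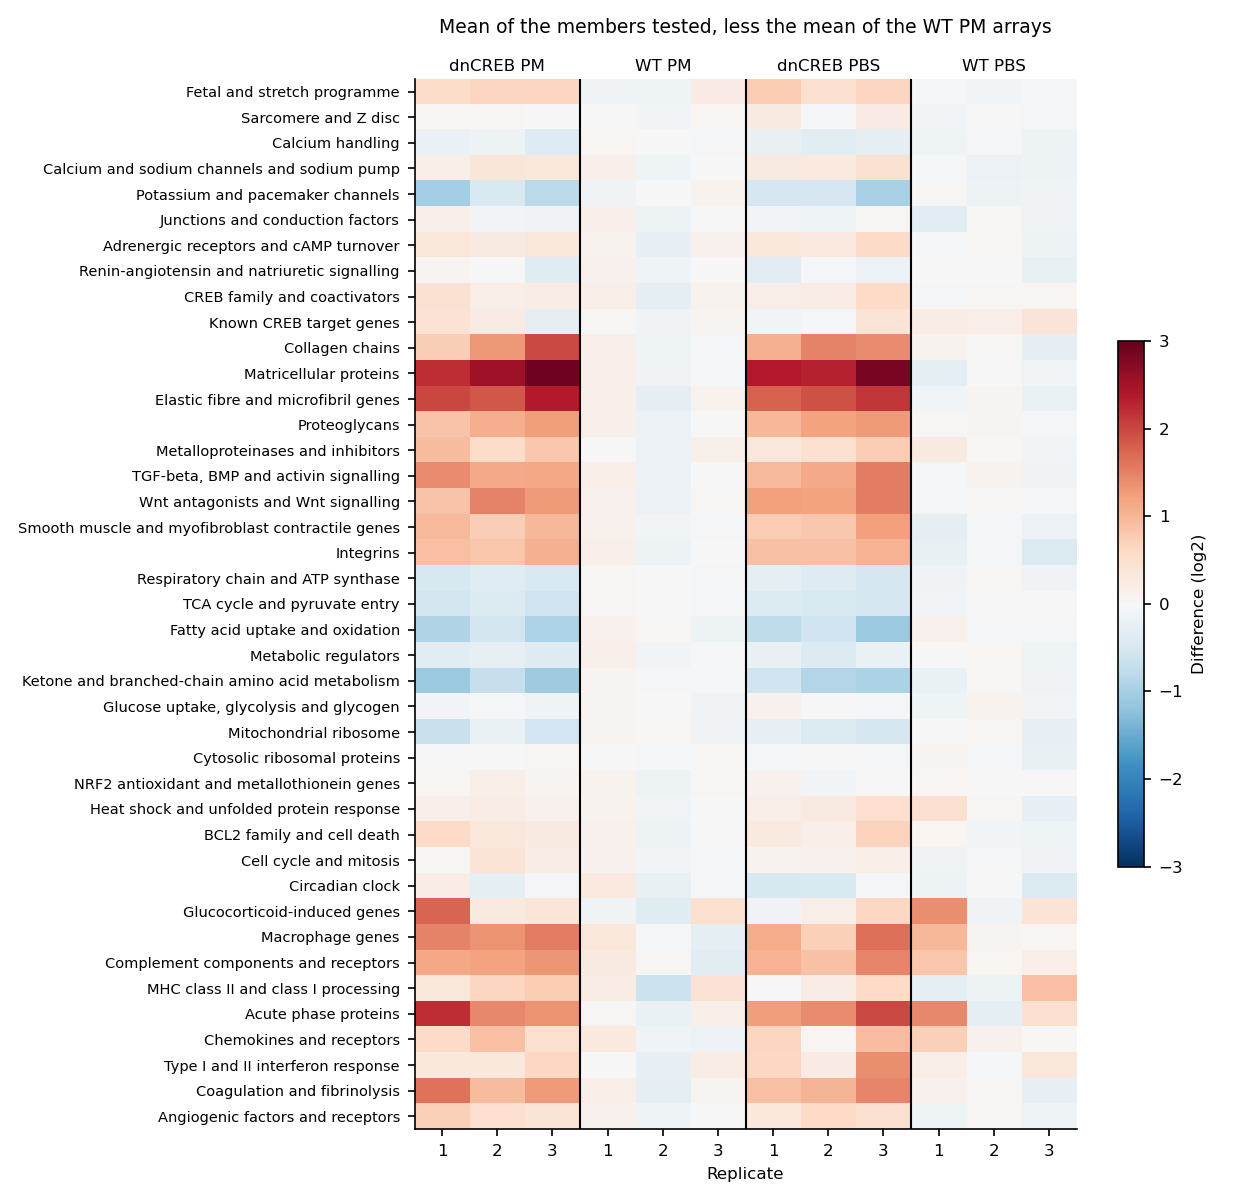
Mean log2 expression of the members tested in each gene list, less the mean of the 3 WT PM hearts, by left ventricle array (columns, replicates 1 to 3 of 4 groups), on a colour scale from −3 to 3. The matrix lists are high in all dnCREB PM and dnCREB PBS arrays, and the glucocorticoid list is high in dnCREB PM replicate 1 (1.75) and WT PBS replicate 1 (1.40).

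The dnCREB PM hearts differed among themselves along several of these lists. Relative to the WT PM hearts, collagen genes averaged 0.75, 1.30 and 1.97 in dnCREB PM replicates 1, 2 and 3, and the median over the list was 2.05 in replicate 3 and 0.98 in the mean of replicates 1 and 2. Fatty acid genes averaged −0.91, −0.56 and −0.92 and the mitochondrial ribosome −0.67, −0.19 and −0.57, so replicate 2 lay nearest to WT in both. Acute phase genes averaged 2.22, 1.45 and 1.35. Macrophage genes averaged between 1.35 and 1.54 and were alike in the 3 arrays. Among single genes, Mfap4, Ecrg4, Postn and Meox1 were higher in replicate 3 than in the mean of the other two (7.27 against 4.97, 7.80 against 4.59, 5.64 against 3.96 and 5.69 against 3.16, relative to WT levels that were under 4 in Ecrg4 and Meox1), and Lcn2, Apod, Serpina3n and Cyp1b1 were lower (2.68 against 6.04, 3.96 against 6.10, 4.05 against 5.71 and 2.18 against 3.95). With 1 array on a side, these differences have no test.

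**Figure D4:**
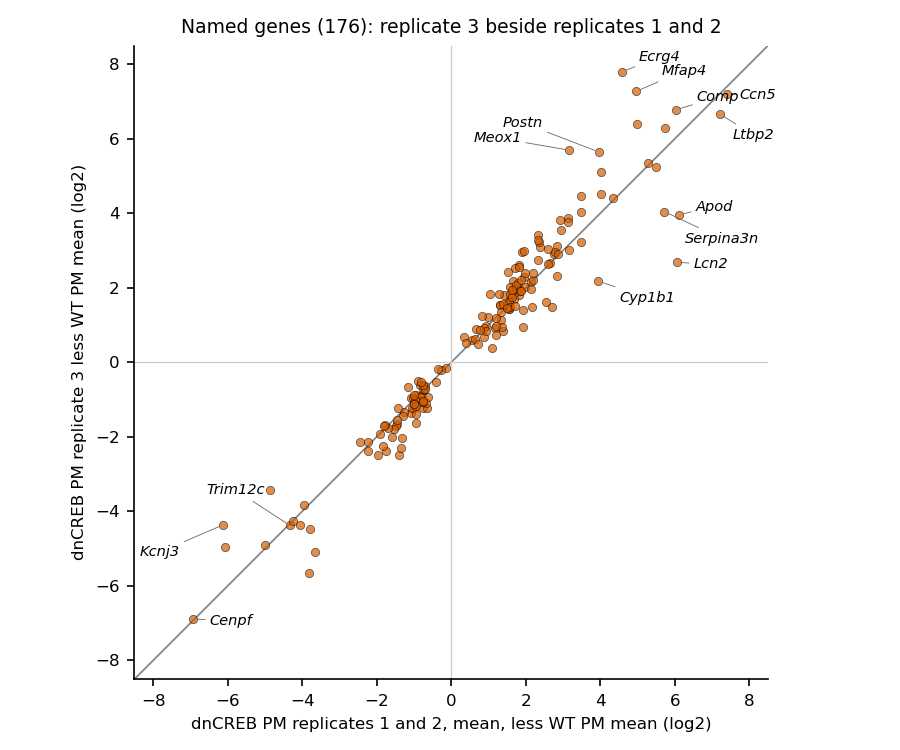
Difference from the mean of the WT PM hearts for the 176 named genes, in dnCREB PM replicate 3 (y axis) and in the mean of replicates 1 and 2 (x axis), both in log2, with the line of equality. The axes share the WT PM arrays, and the points farthest above the line include Mfap4, Ecrg4 and Meox1, those farthest below it Lcn2 and Apod.

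In the absence of PM, the same genotype comparison called 1785 genes (18.5%), 1254 higher and 531 lower. The 3 dnCREB PBS hearts were all high in Eif2s3y and the 3 WT PBS hearts all high in Xist, so among PBS hearts sex-chromosome class and genotype cannot be told apart. With the class in the model, estimated from the PM hearts, the count was 322. The split was 883 higher and 1137 lower with arrays centred on the median of the genes tested, and 1039 higher and 812 lower after quantile normalization. Without dnCREB PBS replicate 3 the count was 1043, and without WT PBS replicate 3 it was 1131. The PBS comparison uses other arrays of both groups, while its spread comes from the same fit. With PBS, Ccn5 was at least 35.5-fold higher and Ltbp2 at least 40.3-fold higher in dnCREB, against the level of 4 under which all WT PBS hearts lay. Comp differed by 7.07, Kcnj3 by −4.33 and Ces1d by −6.35, all called. Apod (3.39, adjusted p = 0.057), Serpina3n (2.86, adjusted p = 0.096) and Lcn2 (1.85, adjusted p = 0.32) did not pass with PBS. The test of the difference between the PM and the PBS comparison called 0 of 9661 genes (0%), with 340 at an unadjusted p under 0.05 and a smallest adjusted p of 0.23. It called 3 genes without dnCREB PM replicate 3, 1 without dnCREB PM replicate 2 and 1 without WT PBS replicate 3. For Apod, Serpina3n and Lcn2 its adjusted p was 0.98 each. The gene with the smallest adjusted p was Aqp4, a water channel, which read 2.53, 2.65 and 2.70 in dnCREB PM hearts, against 4.75, 4.87 and 4.87 in WT PM hearts. Under PBS it averaged 2.55 ± 0.03 in dnCREB and 6.77 ± 0.49 in WT (SD, n = 3 each). The dnCREB arrays lay under 4 in both, so the fitted difference of 2.02 between the comparisons sets values below that level against WT values above it. Macrophage genes had a median of 1.40 under PM and 0.60 under PBS, a gap that was not tested as a list. Relative to the WT PM hearts they averaged 1.11, 0.72 and 1.64 in dnCREB PBS hearts, against 1.00, 0.08 and 0.07 in WT PBS hearts. WT PBS replicate 1 thus stood apart from the other WT PBS hearts and made the PBS difference smaller.

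The lungs of the same genotypes under PM were set beside the hearts. Heart muscle genes were expressed in these lungs: Myh6 read 11.51, 11.54 and 11.85 in dnCREB PM lungs, against 11.87, 11.71 and 11.93 in WT PM lungs. Nppa read between 10.89 and 11.75 in dnCREB PM lungs, against 11.13 to 11.58 in WT PM lungs. Skeletal actin Acta1 varied widely within both groups, at 6.52, 5.61 and 14.16 in dnCREB PM lungs, against 13.93, 13.49 and 8.17 in WT PM lungs. The part of such muscle RNA in the lung comparison and in heart less lung was not tested. The Creb1 probe set with the largest difference in heart lay under 4 in all 3 dnCREB PM lungs and in 2 of the 3 WT PM lungs. No gene of 11248 (0%) was called there by limma, and 441 had an unadjusted p under 0.05. The labels do not say whether heart and lung came from the same animals, and lung and heart arrays appear to have been normalized apart, so only changes within a tissue were set against each other. The genotype difference in heart less that in lung was called in 960 of 11939 genes (8.04%), 611 (5.12%) higher and 349 (2.92%) lower (490 higher and 573 lower with arrays centred on the median of the genes tested). All 3 dnCREB PM lungs and 2 WT PM lungs were high in Xist, and 1 WT PM lung was high in Eif2s3y, unlike the hearts. Neither the lung comparison nor heart less lung was fitted with this class in the model, so its part in them was not tested. Ltbp2 and Ccn5, under 4 in WT PM hearts, were well expressed in lung, where Ltbp2 averaged 10.80 ± 0.59 in dnCREB and 11.19 ± 0.15 in WT, and Ccn5 9.67 ± 0.16 in dnCREB and 9.56 ± 0.76 in WT (SD, n = 3 each). Comp averaged 3.98 ± 1.22 in dnCREB lung and 4.21 ± 0.29 in WT lung, so its rise was seen in heart. Ces1d averaged 13.47 ± 0.12 in dnCREB lung and 13.39 ± 0.09 in WT lung. Across lists, the median for collagens was 1.26 in heart and 0.10 in lung, and for matricellular proteins 1.47 in heart and −0.03 in lung. Fatty acid metabolism had a median of −0.79 in heart and −0.17 in lung, and macrophage genes 1.40 in heart and −0.59 in lung.

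**Figure D5:**
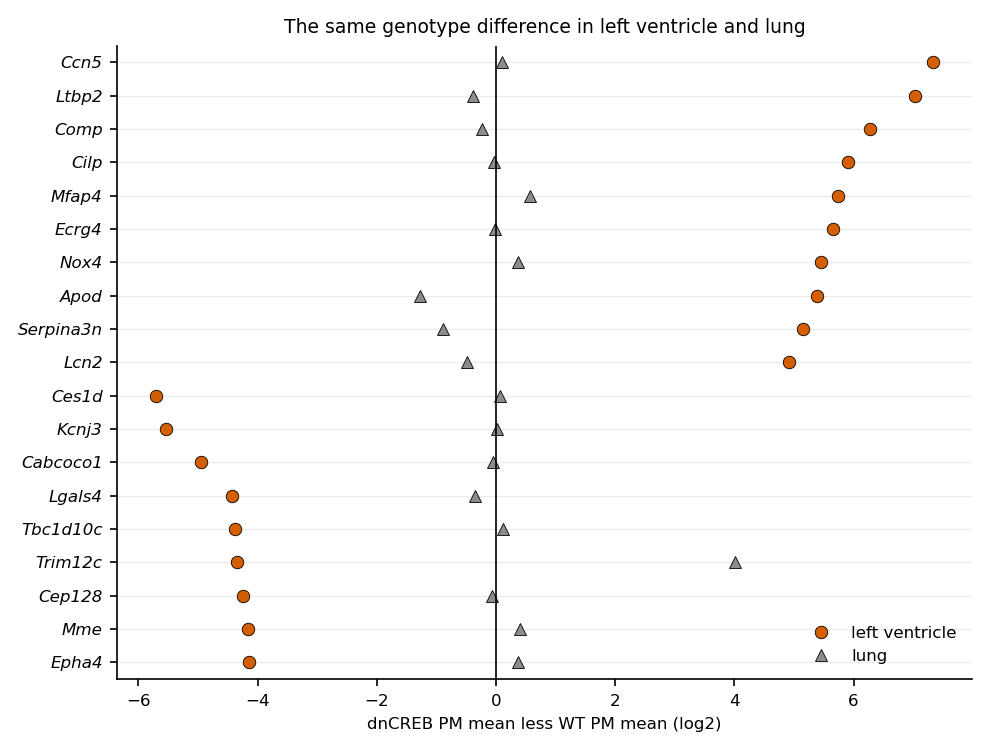
Difference of the dnCREB PM mean less the WT PM mean, in log2 (x axis), in left ventricle (circles) and lung (triangles), for the 19 genes among the 12 largest rises and 12 largest falls in heart that were tested in both tissues. Lung differences lie nearer to 0 apart from Trim12c, at −4.34 in heart and 4.01 in lung, and Apod and Serpina3n, at −1.28 and −0.89 in lung. Differences are plotted as fitted, although WT PM hearts lay under 4 in Ccn5, Ltbp2, Ecrg4 and Nox4 and dnCREB PM hearts in Trim12c.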

How the data were processed

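RNA of the left ventricle was hybridised to Affymetrix arrays. The authors deposited log2 values, 1 per probe set and array, which they made with GCRMA (no version given), per the submitters' processing notes. This method adjusts background from the probes' base composition before it normalizes and summarises. Low values are compressed, so differences below a log2 level of 4 carry little information. No further normalization was applied. Precision depends on how many arrays there are.

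Probe sets with 1 gene symbol (34945 of 45037) were used, those with several (932) or none (9160) were not. For 9010 of the 18193 genes a choice between probe sets was made by the highest mean in the 24 arrays. Among 871 called genes with another probe set tested, 481 had another one called the same way and 2 one called the opposite way. Genes of the X and Y chromosomes (626) were left out through RefSeq, in which 162 genes were not found. A gene was tested when over 4 in at least 3 of the 12 heart arrays.

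The 4 heart groups (12 arrays) were fitted as group means in limma 3.58.1 (R 4.3.3). The variances were moderated, and p-values were adjusted by the Benjamini-Hochberg method over the whole table, with calls at 0.05. The fit was tested on simulated data. Errors are SE of a difference or SD over arrays. Where all arrays of 1 group lay under 4, the fold is given against 4, as a lower bound, and where some did, with those arrays set to 4. Tables and plots were made with Python 3.11.15, pandas 2.3.3 and matplotlib 3.10.9. Named were the 12 largest called changes in each direction among genes whose groups did not overlap, with predicted genes skipped. Also named were up to 4 called members per gene list by p, and a few genes chosen as known markers. Other list members, given to complete a count or to show a gene that did not pass, were chosen after their values were seen. The gene lists and the comparison were chosen with earlier results of these data known. Alternatives were other filters, scalings, array subsets and covariates.

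Replicate numbers are shared between genotypes. Deviations from the group means of same-numbered arrays correlated at 0.10, 0.12 and −0.003, so the numbers were not taken to pair the samples.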

Additional observations from a re-analysis of the deposited data

Results flagged for a closer look

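The genotype difference under PM was set against the same difference in lung, and the results here differed between the tissues by the test of that difference itself. In all, 960 genes passed, in a fit without the sex-chromosome class. Among the 5 largest on the higher side, Ltbp2 differed by 7.41 between the tissues, Ccn5 by 7.23, Apod by 6.66, Comp by 6.51 and Serpina3n by 6.05 (heart less lung, log2, limma, adjusted p 2.2e-07 to 0.0072). These are fitted values, and WT PM hearts lay under 4 in Ltbp2 and Ccn5, and some lungs in Comp. With such arrays set to 4 the differences were 5.24 for Ltbp2, 5.26 for Ccn5 and 6.03 for Comp, so these genes have no settled order. On the lower side, Cenpf differed by −7.83, Ces1d by −5.78, Kcnj3 by −5.55 and Cabcoco1 by −4.90. All dnCREB PM hearts, 2 dnCREB PM lungs and all WT PM lungs lay under 4 in Cenpf, whose difference was −5.23 with these set to 4. Trim12c differed by −8.35 (adjusted p = 0.014), from a fitted difference of −4.34 in heart and 4.01 in lung. With arrays under 4 set to 4 it was −6.25. In lung, Trim12c averaged 7.10 ± 3.17 in dnCREB and 3.09 ± 0.14 in WT (SD, n = 3 each), and the lung difference alone did not pass (adjusted p = 0.91).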

How the results depend on the processing

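The count of 1969 genes in the dnCREB against WT comparison under PM stayed within 1.5 times of that value under other filters, scalings, all probe sets, a kept X and Y, robust estimation with a variance trend and a minimum fold of 1.5. Outside it lay 1151 genes with the fit limited to the 6 arrays, 907 with the sex-chromosome class in the model and 1128 with only the heart arrays of high Xist, where the lone dnCREB array is assumed to vary like the others. The class in the model moved the PBS count to 322 and the count for PM against PBS to 3. With single arrays left out, the PM count ran from 1314 to 2063, the PBS count from 1043 to 1617, the PM against PBS count from 0 to 3, the lung count stayed at 0, and heart less lung ran from 669 to 1072. No called difference of a named gene changed sign. Centring on the median of the genes tested turned the split from mostly higher to mostly lower in 3 comparisons: 964 higher and 1325 lower under PM, 883 and 1137 under PBS, and 490 and 573 for heart less lung. Without dnCREB PM replicate 2 the PM split was 1017 higher and 1046 lower. Of 174 named genes checked, a few of which were not called, 38 lost their call with the class in the model, 20 with the 6 arrays and 13 with no filter on low values. The largest loss came with only the heart arrays of high Xist, where the lone dnCREB array stands for its group. It included Nppa and Nppb, whose differences in that fit were 1.91 and 2.66. The cause of these losses was not tested.

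With replicate number as a block the PM count was 1820, the PBS count 1663 and heart less lung 888. The block ended the calls of 4 named genes: Ackr2 (adjusted p = 0.058), Atf5 (0.051), Map3k6 (0.060) and Popdc2 (0.061). The samples share only a number.

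Limits are 3 arrays per group, sex-chromosome classes that nearly follow the genotypes, compressed values at low signal, and bulk tissue.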
